A study of Mus musculus with 2 samples.

Results

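MicroRNA (miRNA) genes that sit inside introns of metabolic genes are described here, 5 in all: Mir103-1, Mir103-2 and Mir107 in the pantothenate kinase genes Pank3, Pank2 and Pank1, Mir33 in Srebf2, and Mir378a in Ppargc1b. They were chosen by host gene and matched by gene name, which gave 5 of the 2202 miRNA genes counted. RNA under 30 nt was sequenced from tissue labelled layer of hippocampus of female mice of the strain labelled 5xFAD/CAST, adult and 8 to 10 months old. The 2 libraries are biological replicates 1 and 2 of 1 group and share 1 donor entry, so no genotype, age, sex or tissue stands beside them for comparison. The label 5xFAD names a transgenic model of Alzheimer amyloid pathology whose transgenes are driven by the neuronal Thy1 promoter, and CAST is the usual name of an inbred strain from wild Mus musculus castaneus. The sources used here do not say whether tissue of several animals was pooled.

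A miRNA in an intron is cut from the precursor RNA of its host as a hairpin, and 1 of the hairpin's arms is loaded into Argonaute to repress mRNAs that pair with its seed, the bases near its 5′ end. Pantothenate kinases catalyse the first step of coenzyme A synthesis, and the miR-103 and miR-107 family in their introns lowers insulin sensitivity in mouse liver and fat, with caveolin-1 among its targets, and also represses Dicer. Srebf2 encodes the sterol-sensing transcription factor SREBP2, and miR-33 represses the cholesterol exporter Abca1. Ppargc1b encodes the coactivator PGC-1β, and its miR-378a acts in mitochondrial and lipid metabolism. In work on Alzheimer disease, miR-107 is known as a regulator of the beta-secretase BACE1, and miR-103 and miR-107 as regulators of cofilin.

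Sequences of 4 of the 5 members were matched in the RefSeq table (GRCm38.p6). The mature sequences of the Pank miRNAs are shown because the family differs by single bases, which bears on what a read can be assigned to. The seed, bases 2 to 8, is in capitals, and all sequences run 5′ to 3′.
miR-103-3p, from both Mir103-1 and Mir103-2: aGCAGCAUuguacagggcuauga
miR-107-3p: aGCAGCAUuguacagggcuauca
miR-103-1-5p: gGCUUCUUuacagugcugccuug
miR-103-2-5p: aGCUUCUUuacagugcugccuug
miR-107-5p: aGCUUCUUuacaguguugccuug
miR-33-5p: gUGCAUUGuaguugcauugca
miR-33-3p: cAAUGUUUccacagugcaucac
The 3 Pank miRNAs share the seed GCAGCAU on their 3p arms and GCUUCUU on their 5p arms. No other gene among the 1738 mature sequences searched had either seed, and none besides Mir33 had UGCAUUG or AAUGUUU. Counted from 1 at the 5′ end of the miRNA, miR-107-3p differs from miR-103-3p by G22C alone, so the first 21 bases are common to all 3 hairpins. On the 5p arms, miR-103-1 differs from miR-103-2 by A1G, and miR-107 differs from miR-103-2 by C16U.

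The whole hairpins show where these copies can be told apart. Capitals mark bases that differ from Mir103-2 in the Mir103-1 and Mir107 hairpins, and bases that differ from Mir103-1 in the Mir103-2 hairpin, compared from the 5′ end without gaps.
Mir103-1 hairpin: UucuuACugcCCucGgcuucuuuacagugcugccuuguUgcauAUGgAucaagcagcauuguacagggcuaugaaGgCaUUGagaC
Mir103-2 hairpin: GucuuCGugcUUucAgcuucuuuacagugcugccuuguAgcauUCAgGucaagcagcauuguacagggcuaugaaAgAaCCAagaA
Mir107 hairpin: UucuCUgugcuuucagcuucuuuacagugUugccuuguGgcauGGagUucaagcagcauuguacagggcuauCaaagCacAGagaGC
Mir103-1 and Mir103-2 were identical at 69 of 86 bases (80.2%), and Mir107 matched Mir103-2 at 73 of 86 (84.9%). Of the 17 differences between Mir103-1 and Mir103-2, 0 lay in the 3p arm and 1 in the 5p arm, while 5 lay before the 5p arm, 5 in the loop and 6 after the 3p arm. A read of miR-103-3p alone therefore fits 2 hairpins of the table equally. For miR-107-3p, a read from the first base needs 22 bases to differ from miR-103-3p.

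**Figure D1:**
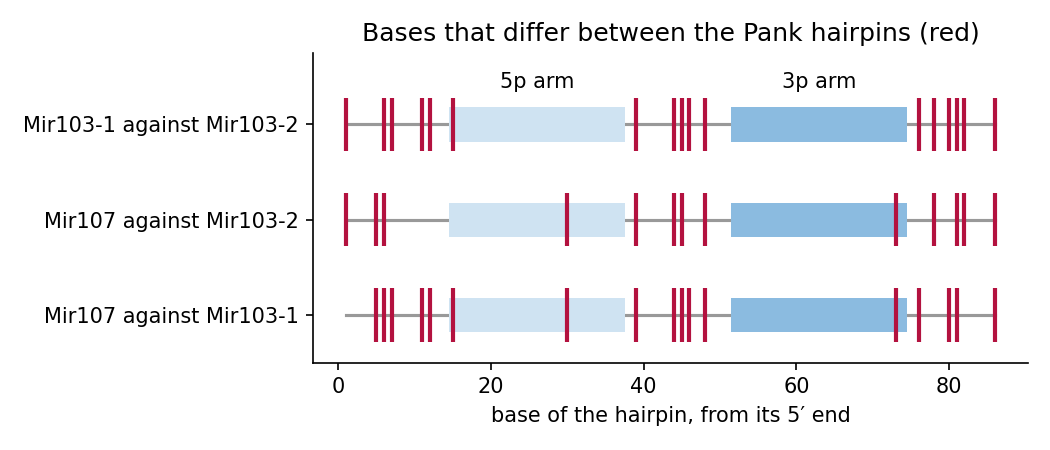
Positions in the hairpin, in bases from the 5′ end (x axis), at which 2 Pank hairpins differ (red lines), for the 3 pairs of genes; light and dark blue boxes are the 5p and 3p arms. The 3p box of Mir103-1 against Mir103-2 holds 0 differences, and that of Mir107 against Mir103-2 holds 1.

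All 5 hairpins lie on the strand of their host and overlap none of its exons in the M21 annotation (mm10). The 3 Pank hairpins share an intron number: each lies in intron 5 of a coding transcript with 7 exons. Mir107 (ENSMUSG00000065594.1) lies on chromosome 19 from 34820687 to 34820773 on the minus strand, in a Pank1 intron of 7282 bases. Mir103-2 (ENSMUSG00000065563.1) lies on chromosome 2 from 131288052 to 131288137 on the plus strand, in a Pank2 intron of 5801 bases. Mir103-1 (ENSMUSG00000065553.1) lies on chromosome 11 from 35782396 to 35782481 on the plus strand, in a Pank3 intron of 1740 bases. Mir33 (ENSMUSG00000065465.1) lies on chromosome 15 from 82198122 to 82198190 on the plus strand, in intron 16 of a Srebf2 transcript with 19 exons. Mir378a (ENSMUSG00000105200.1) lies on chromosome 18 from 61397835 to 61397900 on the minus strand, in intron 1 of Ppargc1b, which spans 76981 bases, and starts 2390 bases into it. No other miRNA gene lay in these hosts on the same strand.

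Depth was 9962659 reads in replicate 1 and 12761689 in replicate 2, of which 3135960 and 4377622 were assigned to miRNA genes on their own strand. Reads with several positions, kept in a line of their own, made up 36.3% and 41.7% of all reads. Levels are given as CPM, assigned counts scaled to a library total of 1000000, and as mean ± SD with n = 2. In bulk tissue, fewer cells of a type and less RNA per cell cannot be told apart. Intervals are exact 95% binomial intervals for 1 library and cover counting error only, since PCR copies are not independent molecules. The sequenced RNA was shorter than the hairpins of 66 to 87 bases, so counts were not divided by length. Among markers, neuronal Mir132 was at 17400 ± 6067 CPM and oligodendrocyte Mir219a-2 at 3540 ± 343 CPM, while the multi-copy neuronal genes Mir124a-1, Mir124a-2 and Mir124a-3 had at most 8 counts in a library. Of the striated muscle genes 2 of 9 were detected, with a summed level of 35.1 and 37.9 CPM in replicates 1 and 2, most of it from Mir206.

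Mir378a and Mir107 carried almost all counts of the group. A gene was called detected at 10 or more counts in each library, which 4 of the 5 members reached, as did 384 of all 2202 genes (17.4%). The 5 genes together held 0.670% of assigned counts in replicate 1 and 0.554% in replicate 2, and Mir378a with Mir107 made up 99.1% ± 0.0812 of that (SD, n = 2).

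Mir378a was the highest and the steadiest of the members. It had 12127 and 17325 counts, or 3867 CPM (3799 to 3936) in replicate 1 and 3958 CPM (3899 to 4017) in replicate 2. The mean was 3912 ± 64.0 CPM, rank 45 of 2202 genes, with rank 44 in each library taken alone.

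Mir107 had 8703 counts in replicate 1 and 6719 in replicate 2, although replicate 2 was the deeper library. Its level was 2775 CPM (2717 to 2834) and 1535 CPM (1498 to 1572), a mean of 2155 ± 877 CPM. Its rank was 49 in replicate 1 and 75 in replicate 2.

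Mir33 was low in both libraries, at 79 and 136 counts. That gave 25.2 CPM (19.9 to 31.4) in replicate 1 and 31.1 CPM (26.1 to 36.8) in replicate 2, with overlapping intervals and a mean of 28.1 ± 4.16 CPM.

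The 2 miR-103 genes had the lowest means of the 5, and both were higher in replicate 1. Mir103-2 had 88 and 55 counts, or 28.1 CPM (22.5 to 34.6) and 12.6 CPM (9.47 to 16.4), a mean of 20.3 ± 11.0 CPM. Mir103-1 had 28 and 6 counts, or 8.93 CPM (5.93 to 12.9) and 1.37 CPM (0.503 to 2.98). Its mean of 5.15 ± 5.34 CPM had an SD above the mean, and the 6 counts kept it from being called detected. The limit that a count of 0 allows was 0.957 CPM for replicate 1 and 0.685 CPM for replicate 2, so the 6 counts lay above it.

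**Figure D2:**
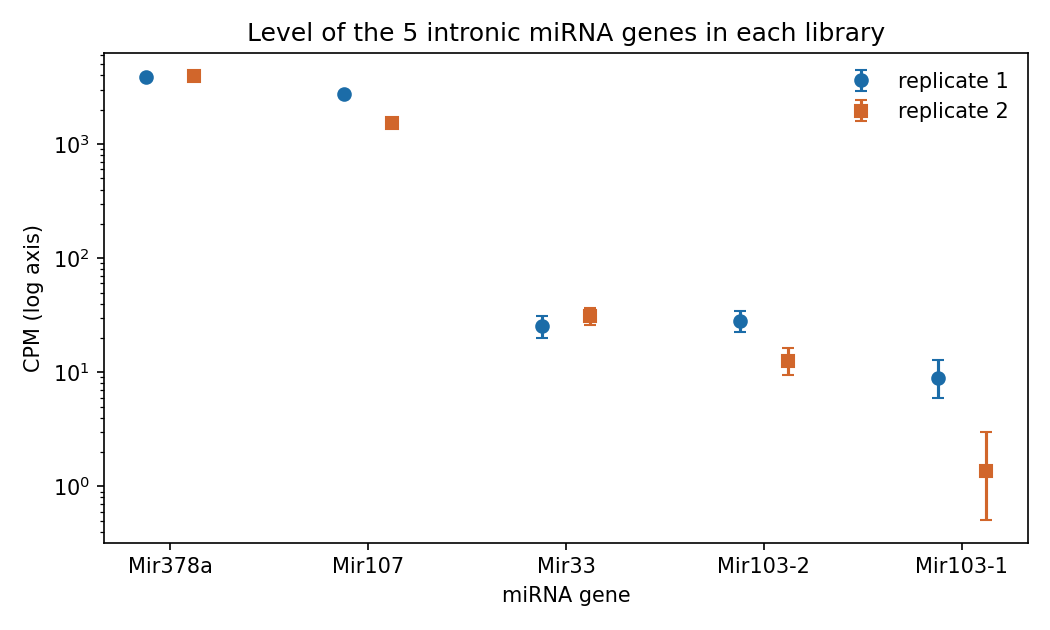
CPM on a log axis for the 5 genes in replicate 1 (blue circles) and replicate 2 (orange squares); bars are exact 95% binomial intervals within a library and are smaller than the symbols for Mir378a and Mir107. Mir378a lies at 3867 and 3958 CPM, and Mir103-1 at 8.93 and 1.37 CPM.

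The order of the means was Mir378a, Mir107, Mir33, Mir103-2 and Mir103-1. Mir378a exceeded Mir107 in each library, by a count ratio of 1.39 (1.36 to 1.43) in replicate 1 and 2.58 (2.51 to 2.65) in replicate 2. Mir107 exceeded Mir33 by ratios of 110.2 and 49.4. Mir33 and Mir103-2 did not differ beyond their spread, as their means lay 7.82 CPM apart with an SD of 11.0 CPM for Mir103-2. Their order also turned: the ratio of Mir33 to Mir103-2 was 0.898 (0.654 to 1.23) in replicate 1 and 2.47 (1.80 to 3.45) in replicate 2. Divided by hairpin length, the means were 59.3, 24.8, 0.408, 0.236 and 0.0599 CPM per base for Mir378a, Mir107, Mir33, Mir103-2 and Mir103-1, in the same order.

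Within the miR-103 and miR-107 family, nearly every assigned count was Mir107's. It made up 98.7% of the 3 genes' counts in replicate 1 and 99.1% in replicate 2. Mir107 stood above Mir103-2 by 98.9 (80.2 to 123) and 122 (93.7 to 162) in counts, and above Mir103-1 by 311 (215 to 468) and 1120 (514 to 3053). Of the Mir103-1 and Mir103-2 counts, Mir103-1 held 24.1% (16.7% to 33.0%) of 116 in replicate 1 and 9.84% (3.70% to 20.2%) of 61 in replicate 2, with overlapping intervals. Reads of miR-103-3p match both hairpins above, and reads with several positions were kept in a line apart from the gene counts. The counts of Mir103-1 and Mir103-2 are therefore uncertain as levels of miR-103, and the part of multimapping reads in their low level was not tested. The share of Mir107 is likewise a share of assigned counts only.

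Between the libraries, each gene's counts were compared with an exact binomial test, two-sided, after TMM scaling, with Benjamini-Hochberg adjustment over the 459 genes with at least 10 counts in either library. This test takes counting error as its only spread and compares 2 libraries, not conditions. It called 261 genes (56.9%), with 29.0% of the 459 higher in replicate 1 and 27.9% higher in replicate 2. Among the members it called 3 of 5, and all 3 were the Pank miRNAs, higher in replicate 1. A share of 3 in 5 is close to the 56.9% called in either direction, while 29.0% were called higher in replicate 1.

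Mir107 was 1.90-fold higher in replicate 1 (1.84 to 1.96, adjusted p below 1e-300). For Mir103-2 the ratio was 2.35 (1.66 to 3.35, adjusted p = 1.6e-06, exact binomial test). Mir103-1 had the widest ratio, 6.84 (2.78 to 20.2, adjusted p = 3.6e-06, same exact test), from 28 and 6 counts. Of the 459 genes, 16 had a wider log2 ratio than Mir103-1, 66 a wider one than Mir103-2 and 102 a wider one than Mir107. The multimapping share was lower in replicate 1, at 36.3% of reads against 41.7% in replicate 2, and its part in these ratios was not tested.

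Mir378a and Mir33 were not called. Mir378a had a ratio of 1.03 (1.00 to 1.05, adjusted p = 0.0558, exact binomial test), and 432 of the 459 genes had a wider log2 ratio. Its direction depended on the scaling: by assigned totals, as in the CPM above, it was lower in replicate 1 (log2 ratio -0.033, adjusted p = 0.0831, exact binomial test). Among genes with at least 100 counts in either library, the TMM-scaled ratio was called (adjusted p = 0.0421, exact binomial test). Mir33 had a ratio of 0.851 (0.637 to 1.13, adjusted p = 0.343, exact binomial test). Set against the spread over all genes instead, with edgeR's common dispersion (biological coefficient of variation 0.385) and a normal test of the log ratio, 0 of 5 members and 3 of 459 genes passed. At an unadjusted p under 0.05 that test had 1 member, Mir103-1, and 32 genes. The adjusted p of this normal test was 0.349 for Mir103-1 and 0.996 for both Mir103-2 and Mir107. The dispersion was estimated from these same 2 libraries, so it already holds the difference being tested. Few genes could pass, and this outcome does not show that the members were alike in the libraries.

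**Figure D3:**
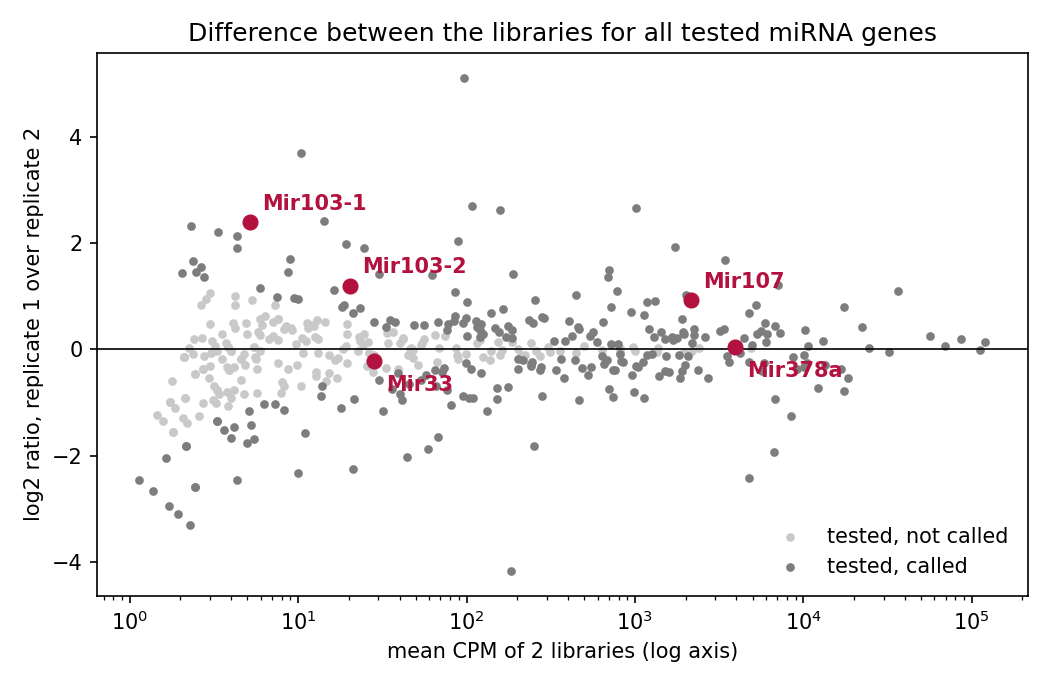
Log2 ratio of replicate 1 over replicate 2 (y axis, TMM-scaled with 0.5 CPM added to both) against mean CPM (x axis, log) for the 459 tested miRNA genes; dark grey points were called by the exact binomial test and light grey ones were not. The members are red: the 3 Pank miRNAs lie above 0, at 0.92, 1.20 and 2.39, and Mir378a and Mir33 at 0.037 and -0.23.

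Strand decided whether Mir378a was counted at all. The annotation has a second miRNA gene, Gm25301 (ENSMUSG00000093026.1), on the plus strand of chromosome 18 from 61397813 to 61397925, which covers Mir378a. Counted without regard to strand, both genes had 0 counts in both libraries. On its own strand Mir378a had 12127 and 17325 counts, while Gm25301 had 0 and 0, and its opposite-strand column held the same 12127 and 17325. Those reads equal 5.48% and 4.52% of the ambiguous line of the unstranded counts. The other 4 members have no miRNA gene on the opposite strand, had 0 reads there and kept the same counts without regard to strand.

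Introns of protein-coding genes held 710 of the 2202 miRNA genes, of which 146 were detected. Among these 710, Mir378a ranked 14, Mir107 ranked 22, Mir33 ranked 91, Mir103-2 ranked 98 and Mir103-1 ranked 137.

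The miR-15/16 relatives of the family, which regulate the cell cycle and apoptosis, carry the same GCAGCA core shifted by 1 base. They are shown to set their seeds beside that of miR-103 and miR-107.
miR-16-5p: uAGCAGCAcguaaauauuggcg
miR-195a-5p: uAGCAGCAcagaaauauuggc
miR-497a-5p: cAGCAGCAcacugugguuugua
GCAGCA, searched on the miRNA strand, started at base 2 in miR-103-3p and miR-107-3p and at base 3 in these 3. Of 1738 mature sequences, 17 held it within the first 8 bases. Of 10 listed relatives in the tables, 8 were detected, and their summed level was 3852 CPM in replicate 1 and 11860 CPM in replicate 2. Mir195a had the highest assigned level of them in replicate 1 as in replicate 2. Mir195a had 1454 and 8125 CPM, Mir15a 761 and 1509 CPM, Mir497 502 and 978 CPM, and Mir322 498 and 498 CPM. Mir195b and Mir497b had 0 counts, and Mir497b lies on the strand opposite Mir497. miR-16-5p lies whole in 2 hairpins, and reads with several positions were kept apart. The counts of its genes are therefore uncertain as levels of miR-16, and the summed level is of assigned counts only. Of the 8 tested, 4 were called, all higher in replicate 2 (exact binomial test). Over all 459 genes tested, 56.9% were called in either direction and 27.9% were called higher in replicate 2. Mir107, at 2775 CPM, was above Mir195a in replicate 1, but at 1535 CPM in replicate 2 it was below Mir195a and close to Mir15a.

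**Figure D4:**
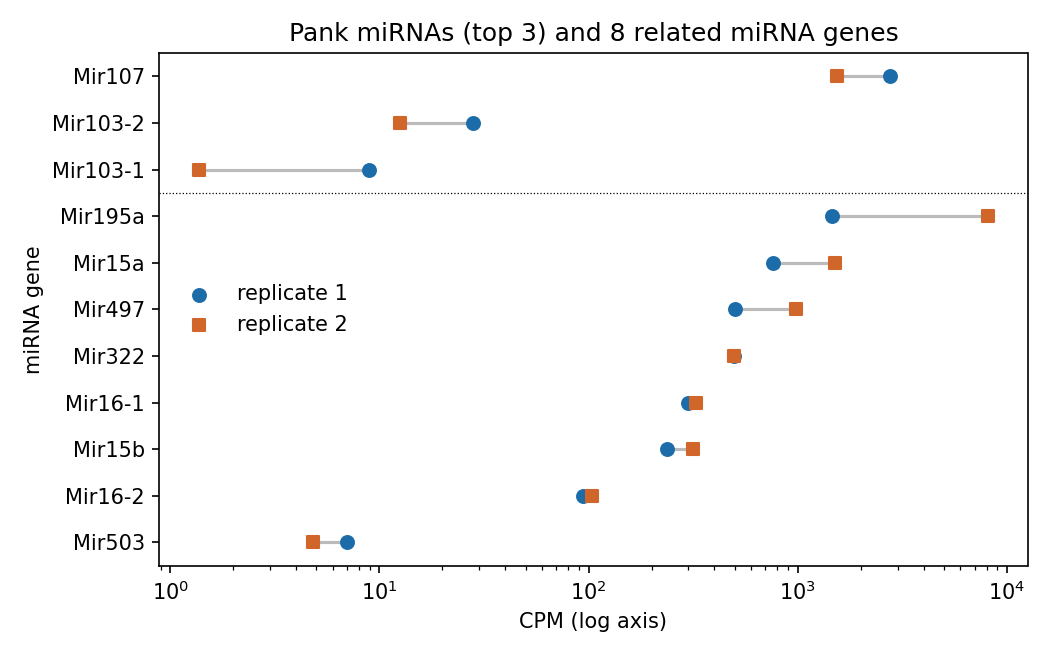
CPM (x axis, log) of the 3 Pank miRNAs, above the dotted line, and of the 8 detected miR-15/16 relatives, below it, in replicate 1 (blue circles) and replicate 2 (orange squares). The Pank miRNAs lie further right in replicate 1, and Mir195a, Mir15a and Mir497 further right in replicate 2.

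Of the miR-378 relatives by symbol, Mir378d had 15 and 15 counts, Mir378c 9 and 9, and Mir378b 1 and 2. Their summed level was 7.97 and 5.94 CPM, against 3867 and 3958 CPM for Mir378a. Mir378a is also abundant in muscle and brown fat, whose other miRNAs were compared. In muscle, Mir206 was at 24.5 ± 2.72 CPM and Mir499 at 10.5 ± 3.96 CPM, Mir208a and Mir208b had at most 6 counts, and Mir1a-1, Mir1a-2, Mir133a-1, Mir133a-2 and Mir133b had 0. The level of Mir206 was close to that of Mir33. Mir1a and Mir133a are, like Mir124a, multi-copy genes, and reads with several positions were kept apart, so their 0 counts do not show that these miRNAs were absent. Bases that Mir133b may share with Mir133a were not checked, so its 0 counts do not show absence either. In the brown fat list 3 of 7 genes were detected: Mir455 at 2234 ± 345, Mir155 at 221 ± 19.0 and Mir193b at 46.9 ± 0.903 CPM. Mir155 is in this list but was not among the genes taken as brown fat markers. Mir365-1, Mir365-2, Mir196a-1 and Mir196a-2 had at most 8 counts. They are multi-copy genes too, so these counts do not show that miR-365 or miR-196a was absent.

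Other miRNAs tied to cholesterol and lipids, the setting of Mir33, were mostly above it. Of 21 listed genes, 17 were detected, with a median of 6.62 on the log2(CPM + 1) scale, against 0 over all 2202 genes and 6.87 over the 384 detected. Mir128-1 led at 6807 ± 3199 CPM, followed by Mir27b at 1991 ± 350, Mir185 at 1688 ± 80.8 and Mir128-2 at 1383 ± 377 CPM. Mir122, the main liver miRNA, was at 33.4 ± 7.07 CPM, close to the 28.1 ± 4.16 CPM of Mir33. Mir19b-1 and Mir19b-2 had 1 and 0 counts over both libraries, and Mir144 and Mir96 each fell under 10 counts in 1 library. Mir19b is multi-copy like Mir1a, so its low counts do not show that miR-19b was absent. Mir128-1 and Mir128-2 are gene copies too, so their levels are likewise of assigned counts only. Of 19 tested, 14 were called, 7 in each direction (exact binomial test), beside 56.9% over all genes tested.

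Among miRNAs tied to insulin and glucose, the setting of miR-103 and miR-107, 16 of 18 were detected, with a median of 6.20 on the log2(CPM + 1) scale. Mir29a led at 18400 ± 5451 CPM, followed by Mir143, which impairs insulin signalling in mouse liver, at 7269 ± 872 CPM. Mir21a was at 3431 ± 2468 and Mir29c at 1864 ± 542 CPM. Mir802 had 0 counts, and Mir141 had 62 and 5. Of 17 tested, 14 were called, 10 of them higher in replicate 1 (exact binomial test), beside 56.9% called and 29.0% called higher in replicate 1 over all 459 genes. Among the 277 genes with at least 100 counts in either library, the called share was 77.6%. In the liver list 4 of 6 genes were detected, with a summed level of 68.6 and 123 CPM in replicates 1 and 2. Mir194-1 and Mir802 had 0 counts, but Mir194-1 is a multi-copy gene, so its 0 counts are not a level of miR-194. In the red blood cell list 2 of 3 were detected, with 70.2 and 78.4 CPM, and Mir451a, a red cell marker, was at 37.6 ± 8.21 CPM. The part of blood or liver miRNAs in the levels of the members was not tested. The hippocampal and neuronal list had 13 of 17 detected, with a median of 7.76 on the log2(CPM + 1) scale. Mir9-2, a multi-copy gene as well, had 10 and 4 counts. The oligodendrocyte list had 3 of 3 detected.

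The genes nearest to each detected member were found by distance in log2(CPM + 1) over the 2 libraries. Only 2 points enter each distance. Mir541, at 4003 and 4379 CPM, was nearest to Mir378a (distance 0.15), followed by Mir219a-2 (0.24). Mir187, at 2654 and 1376 CPM, was nearest to Mir107 (0.17), followed by Mir874 (0.32), which lies in an intron of Klhl3. Mir24-1 and Mir486 were nearest to Mir33 (0.09 and 0.10), and Mir181b-1 and Mir3070b to Mir103-2 (0.27 and 0.30).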

How the data were processed

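The authors deposited 1 table of raw read counts per library, with 4 summary lines above 2202 miRNA genes and 3 count columns, without regard to strand and on each strand. Assembly mm10 and annotation M21 are named in the deposited notes. The sources used here name no aligner, counter or trimming. The column with the larger strand total was taken as sense, and the summary lines entered neither library sizes nor tests. Replicate numbers came from the labels.

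CPM was computed over sense counts, with exact Clopper-Pearson 95% intervals and a floor of 3 counts for a count of 0. TMM factors were 0.976 and 1.02 (edgeR 4.0.16, R 4.3.3). Ratios are replicate 1 over replicate 2. Log2 ratios have 0.5 CPM added to both, and the exact binomial test used the counts. It was checked on simulated data with counting error only, so that check does not cover wider spread between libraries. Alternatives used DESeq2 1.42.0 size factors, other denominators, filters and columns. Nothing says that the 2 libraries came from separate animals, so a difference between them may be technical. The p-values of the exact binomial test set that difference against counting error only.

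Members and the 10 gene lists were chosen with earlier results of these data known. Of the listed symbols, 5 had no match. Genes were named by a rule: the members, genes sharing a seed, up to 4 leading and all undetected genes of each list, other miRNA genes of the hosts, and the 2 nearest in level. Sequences are RefSeq's (GRCm38.p6), and those of chromosome 18 were left out. Tests and plots ran in Python 3.11.15 with scipy 1.17.1, matplotlib 3.10.9, pandas 2.3.3 and numpy 2.4.6.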

Additional observations from a re-analysis of the deposited data

How the results depend on the processing

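No paired analysis was possible because there is 1 group. With all reads as the denominator, mean CPM was 1287 for Mir378a, 700.0 for Mir107, 9.29 for Mir33, 6.57 for Mir103-2 and 1.64 for Mir103-1. Over assigned plus multimapping reads it was 1791, 991, 12.9, 9.35 and 2.383. Without regard to strand Mir378a was at 0 CPM. Left with 1 replicate, levels ranged from 3867 to 3958 (Mir378a), 1535 to 2775 (Mir107), 25.2 to 31.1 (Mir33), 12.6 to 28.1 (Mir103-2) and 1.37 to 8.93 CPM (Mir103-1), and the Mir103-1 share of the miR-103 counts from 9.84% to 24.1%. With at least 100 counts in either library Mir378a was called (log2 ratio 0.037, adjusted p = 0.0421, exact binomial test), against adjusted p = 0.0558 over the 459 genes. Scaled by assigned totals its ratio turned to below 1 (log2 ratio -0.033, adjusted p = 0.0831, exact binomial test) and was not called. With DESeq2 size factors the Mir378a ratio stayed above 1 (log2 ratio 0.022, adjusted p = 0.269, exact binomial test) and was not called. With edgeR's common dispersion as the spread, the log2 ratios of 0.92 (Mir107), 1.20 (Mir103-2) and 2.39 (Mir103-1) were no longer called, and 3 genes were called against 261. That dispersion was estimated from the same libraries, so few genes could pass. Without a filter 258 of 757 genes were called (34.1%), against 56.9% of 459. At 100 counts, detected genes numbered 0 for the Mir378 relatives, 11 for cholesterol and lipid, 0 for striated muscle, 0 for liver and 1 for red blood cell. At 1 count they numbered 3 for the Mir378 relatives, 4 for striated muscle and 6 for brown fat. A pseudocount of 5 CPM raised the medians of 9 of 10 lists, 3 of them beyond the spread between libraries. Depth limits Mir103-1 most, with 28 and 6 counts.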

Other observations

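Mir378a was 1 of 24 detected genes, of 384, that had counts on their own strand and 0 in both libraries without regard to strand. All 24 overlapped a miRNA gene on the opposite strand, as do 64 of the 2202 genes. Mirlet7e at 32280 ± 1957 CPM and Mir191 at 10050 ± 886 CPM, in both cases opposite an annotated Gm miRNA gene, were the 2 above Mir378a. Sense counts of the 24 genes equalled 80.9% of the ambiguous line in replicate 1 and 72.9% in replicate 2.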
